A study of Drosophila melanogaster with 2 samples.

Results

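Dref, M1BP, BEAF-32, CTCF, su(Hw), Cp190, mod(mdg4), pita and Chro are 9 of the 13945 protein-coding genes of Drosophila melanogaster on the nuclear arms, and were taken as a named list because their products bind housekeeping promoters and insulators. They were examined for binding of dsf (dissatisfaction), a tailless-group nuclear receptor with no known ligand, by chromatin immunoprecipitation with sequencing. The samples formed 1 group of 2 biological replicates, numbered 3 and 4, each from pooled male and female whole larvae at the wandering stage of the last instar. All larvae came from a transgenic strain, dsf-GFP in the labels, that makes a dsf-eGFP fusion with the tag at the C terminus, and chromatin was pulled down with an antibody to GFP. The promoter driving the fusion is not given in the sources used here, no untagged or input sample was analysed here, and whole larvae do not show in which cells a gene was bound. All summits inside each gene or within 2 kb of either end were listed, from a joint list of 1731 regions that passed the authors' reproducibility procedure (irreproducible discovery rate, IDR), from the pooled list of 29999 regions behind it, and from each replicate's own full list. The pooled list was input to that procedure and holds background as well as peaks. At the factor genes the −log10 of the q-value went down to 0.06 in the pooled list and replicate 3, and to 0.13 in replicate 4. A summit in these longer lists is thus not by itself a binding call. The signal value is the authors', ranks regions within a list, and has no replicate error of its own. The files hold no read counts, so depth is unknown.

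Insulator proteins bind DNA at boundaries between chromatin domains and can keep an enhancer from acting across them. In flies several DNA-binding proteins, among them BEAF-32, CTCF, su(Hw) and pita, share the cofactors Cp190 and mod(mdg4). Much of the binding of some of them, such as BEAF-32, lies close to promoters of housekeeping genes. At such promoters Dref binds the DNA replication-related element and M1BP binds the promoter element called Motif 1. Chro, a chromodomain protein of open chromatin between the bands of polytene chromosomes, is found with BEAF-32. Many housekeeping genes in flies lie head to head and start from a shared stretch of DNA.

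The stretches below are shown because the strongest summits at 6 of the genes fell in or beside them. They are from the RefSeq release 6 genome (dm6), read 5′ to 3′ on the strand of the named gene, and stop at annotated exons. For Dref, Cp190, Chro and the inner site of mod(mdg4) the whole stretch between the opposing start sites is given, and for the others the 50 bases on either side of the summit. Capitals mark TATCGA in Dref, TATAAA on either strand in M1BP, su(Hw) and mod(mdg4), and the complements of GTCACA and CGATA in Cp190, which lie 88 and 147 bp from the summit and so outside the window searched for words in the text. The Dref stretch is chr2L:9967230-9967312, M1BP chr3R:8731952-8732052, su(Hw) chr3R:14308799-14308899, Cp190 chr3R:15275242-15275521 and Chro chr3L:22878985-22879088. For mod(mdg4) the inner stretch is chr3R:21365489-21365608 and the upstream one chr3R:21378713-21378813. All 7 are given on the minus strand.
Dref: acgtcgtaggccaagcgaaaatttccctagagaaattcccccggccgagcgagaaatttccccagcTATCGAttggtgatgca
M1BP: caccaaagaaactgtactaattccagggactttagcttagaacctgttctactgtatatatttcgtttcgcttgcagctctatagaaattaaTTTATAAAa
su(Hw): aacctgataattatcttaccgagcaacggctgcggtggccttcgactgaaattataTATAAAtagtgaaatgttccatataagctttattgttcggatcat
Cp190: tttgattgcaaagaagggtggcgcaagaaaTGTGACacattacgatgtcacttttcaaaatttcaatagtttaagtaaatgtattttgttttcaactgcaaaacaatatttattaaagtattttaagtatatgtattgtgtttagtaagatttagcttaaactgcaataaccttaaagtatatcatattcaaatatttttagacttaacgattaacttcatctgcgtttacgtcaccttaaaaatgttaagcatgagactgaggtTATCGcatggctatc
Chro: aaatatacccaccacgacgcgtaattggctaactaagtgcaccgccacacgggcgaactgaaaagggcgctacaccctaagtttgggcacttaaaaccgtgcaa
mod(mdg4), inner: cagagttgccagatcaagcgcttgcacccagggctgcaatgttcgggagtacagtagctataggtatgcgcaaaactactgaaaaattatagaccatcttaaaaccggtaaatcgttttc
mod(mdg4), upstream: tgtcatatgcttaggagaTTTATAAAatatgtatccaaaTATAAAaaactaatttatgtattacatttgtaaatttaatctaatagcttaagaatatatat

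Of the 9 genes, 7 had a joint-list summit inside the gene or within 2 kb, against 18.6% of all protein-coding genes. Among protein-coding genes no shorter than M1BP (1909 bp) and no longer than mod(mdg4) (26556 bp), the share was 21.8%. Dref, M1BP, su(Hw), Cp190 and Chro held 1 summit each, BEAF-32 and mod(mdg4) held 2 each, and CTCF and pita held 0. Of the 9 summits, 7 were at most 1 kb from a start site of transcription (TSS) of the gene itself, and these belonged to 6 genes. The matching share of protein-coding genes was 12.2%, and 15.2% among those of the same range of lengths. All 9 summits lay within 1 kb of the TSS of some protein-coding gene, where 69.3% of the 1708 nuclear joint-list summits lay. The 9 were taken for lying in or near a gene and the 1708 were not, so these 2 shares are not alike. The genes were picked for their function with earlier results of these data known, so these shares are set side by side and were not tested.

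**Figure D1:**
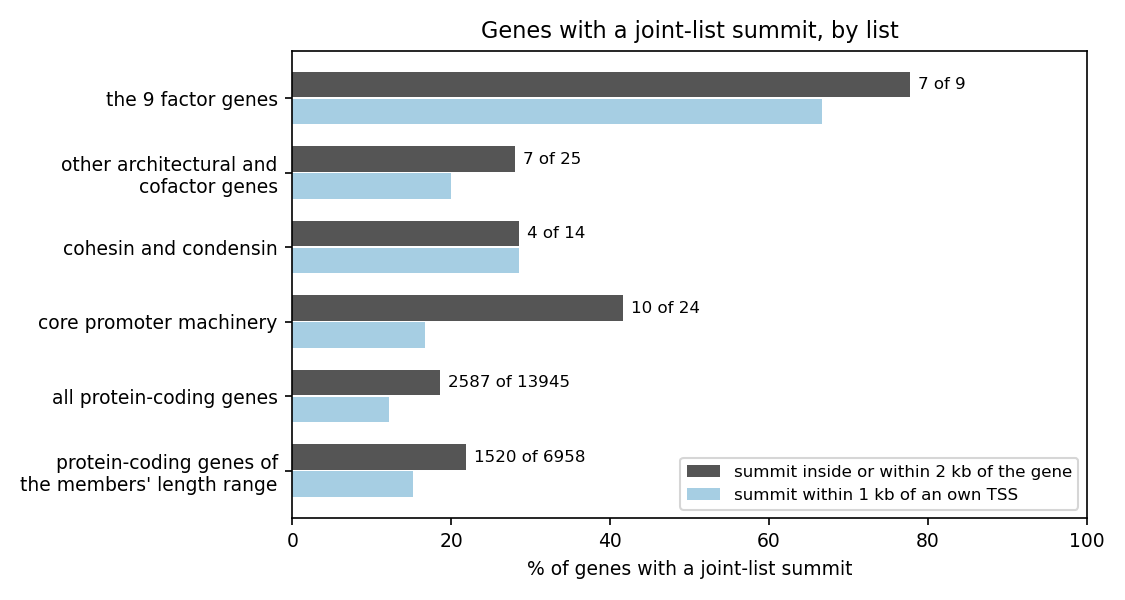
Share of genes with a joint-list summit (horizontal axis, %), in dark bars for a summit inside the gene or within 2 kb and in light bars for a summit within 1 kb of an own TSS. The factor genes, at 7 of 9, stand above 3 related lists and above all protein-coding genes, of which 2587 of 13945 had a summit.

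The summits at the factor genes ranked from 44 to 1301 in the joint list. Their median signal value was 109.1, against 104.0 for all nuclear joint-list regions, and 5 of the 9 were above that value. The lowest value in the joint list was 73.53, and the weakest summit at a factor gene, at su(Hw), had 85.13.

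**Figure D2:**
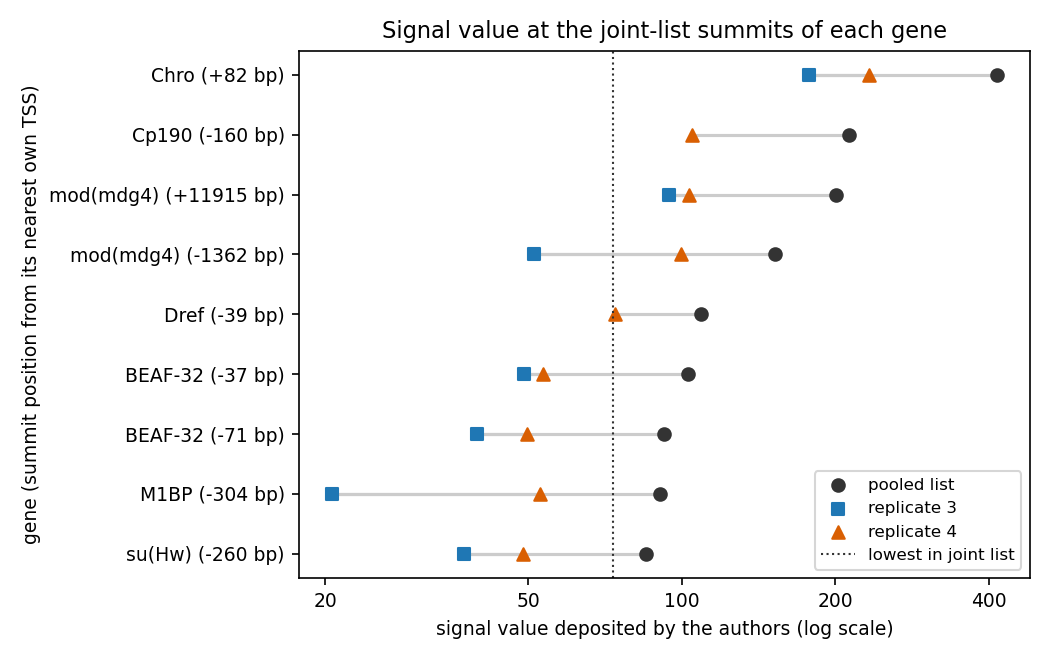
Signal value (horizontal log axis) of each joint-list summit at a factor gene, in the pooled list and at the matched summit of each replicate, with the distance from the nearest own TSS beside the name. Chro is highest in each list, no replicate 3 point exists for Cp190 and Dref, and M1BP has the widest gap between replicates, 20.68 against 52.84.

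The strongest summit was at Chro (FBgn0044324, chr3L:22873702-22878984, minus strand), whose product sits at active promoters between polytene bands and on the mitotic spindle. Its signal value was 414.5 in the pooled list, 177.6 in replicate 3 and 233.1 in replicate 4. These values ranked 44, 37 and 45, so both replicates placed it among their strongest regions. The summit lay 82 bp downstream of the nearest of 3 annotated TSS, in a 5′ untranslated exon, and 187 bp upstream of the TSS of Ssl1, which encodes a subunit of the general transcription factor TFIIH. The first TSS of Chro and that of Ssl1 are 105 bp apart on opposite strands, and the summit fell just outside that stretch, on the Chro side. A second pooled summit in the 3′ untranslated region of Chro had only 38.69 and ranked 5741.

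Cp190 (FBgn0000283, chr3R:15270432-15275241, minus strand), the cofactor shared by several insulator proteins, had the next strongest summit. It lay 160 bp upstream of Cp190 and 121 bp upstream of CG4338, which starts 281 bp away on the opposite strand. Its signal value was 212.9 in the pooled list and 104.8 in replicate 4, with ranks of 162 and 267. Replicate 3 listed no summit within 2 kb of Cp190.

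Dref (FBgn0015664, chr2L:9964147-9967229, minus strand), the factor of the DNA replication-related element, shares the shortest of these promoters. Its TSS lies 84 bp from that of RpL13, a ribosomal protein gene, and the summit fell 39 bp upstream of Dref and 45 bp upstream of RpL13. The signal value was 109.1 in the pooled list and 73.93 in replicate 4, with ranks of 802 and 655, and replicate 3 again listed no summit within 2 kb. A weaker pooled summit at the far end of Dref (50.2, rank 3488) lay 117 bp upstream of the neighbouring gene CG5850.

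M1BP (FBgn0037621, chr3R:8729790-8731698, minus strand), the Motif 1 factor, had its summit 304 bp upstream, nearer to CG8202, at 89 bp upstream of that gene. The signal value was 90.73 in the pooled list (rank 1134) and 52.84 in replicate 4 (rank 1343). In replicate 3 the nearest summit, 52 bp away, had 20.68 and ranked 4042, while a stronger one (46.82, rank 743) lay only 150 bp upstream of M1BP. The strongest summits of the replicates at this promoter were thus 158 bp apart, with ranks of 743 and 1343. The start sites of M1BP and CG8202 are 393 bp apart.

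su(Hw) (FBgn0003567, chr3R:14304455-14308589, minus strand), which encodes the zinc finger protein of the gypsy insulator, had a summit 260 bp upstream. The same summit lay 240 bp upstream of Polr2I, a subunit gene of RNA polymerase II, near the middle of the 500 bp between the start sites. Its signal value was 85.13 in the pooled list, 37.43 in replicate 3 and 48.82 in replicate 4, with ranks of 1301, 1117 and 1594.

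These 5 genes, of the 9, have a head-to-head protein-coding neighbour whose first TSS is at most 1 kb away, and 32.8% of protein-coding genes do. All 5 had a joint-list summit inside or within 2 kb, against 29.4% of genes in such pairs. Of the 9 summits, 4 lay between the paired start sites, against 22.5% of nuclear joint-list summits, which were not taken for lying near a gene. The summit at each of these 5 genes is within 1 kb of both genes of the pair. It thus cannot be assigned to the factor gene rather than to RpL13, CG8202, Polr2I, CG4338 or Ssl1. The head-to-head arrangement was looked for after the summits had been seen.

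BEAF-32 (FBgn0015602, chr2R:14770469-14772630, plus strand), a boundary factor made in isoforms with different DNA-binding ends, is a short gene with 3 annotated TSS. Its first joint-list summit lay 37 bp upstream of the first TSS, with a signal value of 103.0 in the pooled list, 49.08 in replicate 3 and 53.51 in replicate 4. The second lay inside the gene, 71 bp upstream of the last TSS and 761 bp downstream of the first, with 92.18, 39.7 and 49.83. Each replicate thus listed a summit at either end of the set of BEAF-32 start sites, with ranks of 667 and 1003 in replicate 3 and 1315 and 1533 in replicate 4. Both summits fell in an exon of BEAF-32 or of the antisense RNA gene asRNA:CR42254, and the data do not separate the strands. A pooled summit below the joint list (56.52, rank 2797) lay 980 bp upstream, at 66 bp from the TSS of Spred.

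**Figure D3:**
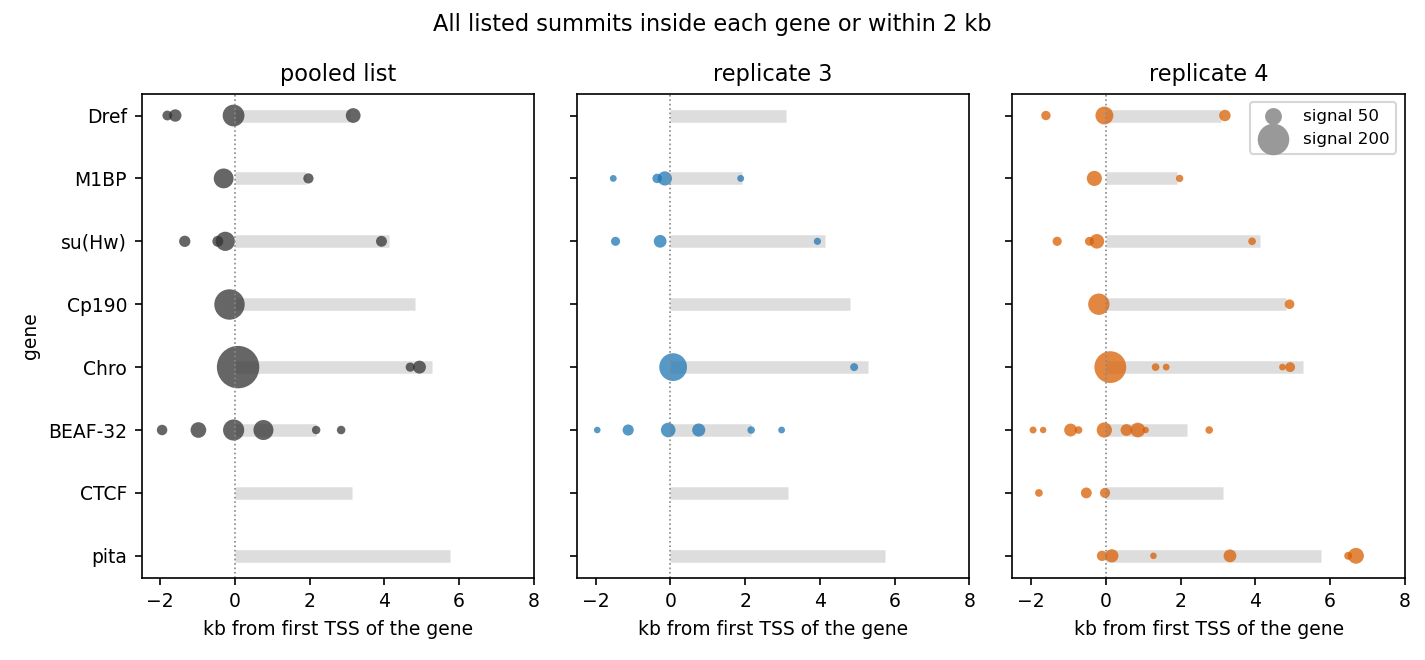
Position of every listed summit from the first TSS of each gene (horizontal axis, kb, downstream to the right; grey bars show gene length), with point area proportional to the signal value, for 8 of the genes in the pooled list and each replicate. The largest points of Dref, M1BP, su(Hw), Cp190 and Chro cluster at the first TSS, and the rows of CTCF and pita hold points in replicate 4 only.

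The locus of mod(mdg4) (FBgn0002781, chr3R:21350846-21377401, minus strand) is built differently, since its many protein isoforms are made by trans-splicing of a common first part to variable last exons transcribed on either strand. The annotation holds 23 pre-mod(mdg4) units for these last exons, 14 on the strand of mod(mdg4) and 9 on the opposite one. Its strongest joint-list summit lay 11915 bp inside the gene, away from its own TSS and 2 bp downstream of the TSS of the unit pre-mod(mdg4)-E. That summit was also 123 bp upstream of a start site shared by units on the opposite strand, such as pre-mod(mdg4)-X. Its signal value was 200.9 in the pooled list, 94.53 in replicate 3 and 103.5 in replicate 4, with ranks of 184, 145 and 273, and the summit position differed by at most 1 bp between lists. In all, 10 of the 23 units, with 3 distinct TSS positions, start within 500 bp of that summit.

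The other joint-list summit at mod(mdg4) lay 1362 bp upstream of it and 214 bp upstream of tin, the homeobox gene of heart development. It had signal values of 152.6, 51.44 and 99.82 in the pooled list, replicate 3 and replicate 4. At the mod(mdg4) TSS itself, the pooled list held a summit 15 bp upstream with 47.21 (rank 3931, −log10 q 0.76), below the joint list and not matched in replicate 3. The remaining start sites of the units had weaker pooled summits, with 58.91 (rank 2592) near those of pre-mod(mdg4)-G and pre-mod(mdg4)-T and 51.52 (rank 3331) near that of pre-mod(mdg4)-N. The 23 units have 6 distinct TSS positions, some close enough to share a summit, and each had a summit within 500 bp in both replicates' full lists. Some of these were weak, with a −log10 q in replicate 3 of 0.13 near pre-mod(mdg4)-T and 0.1 near pre-mod(mdg4)-N. Of 19252 distinct protein-coding TSS positions, 35.9% had one in replicate 3 and 48.3% in replicate 4. In all, the pooled list, which includes background, held 18 summits at mod(mdg4), the most of the 9 genes in what is also the longest of them.

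**Figure D4:**
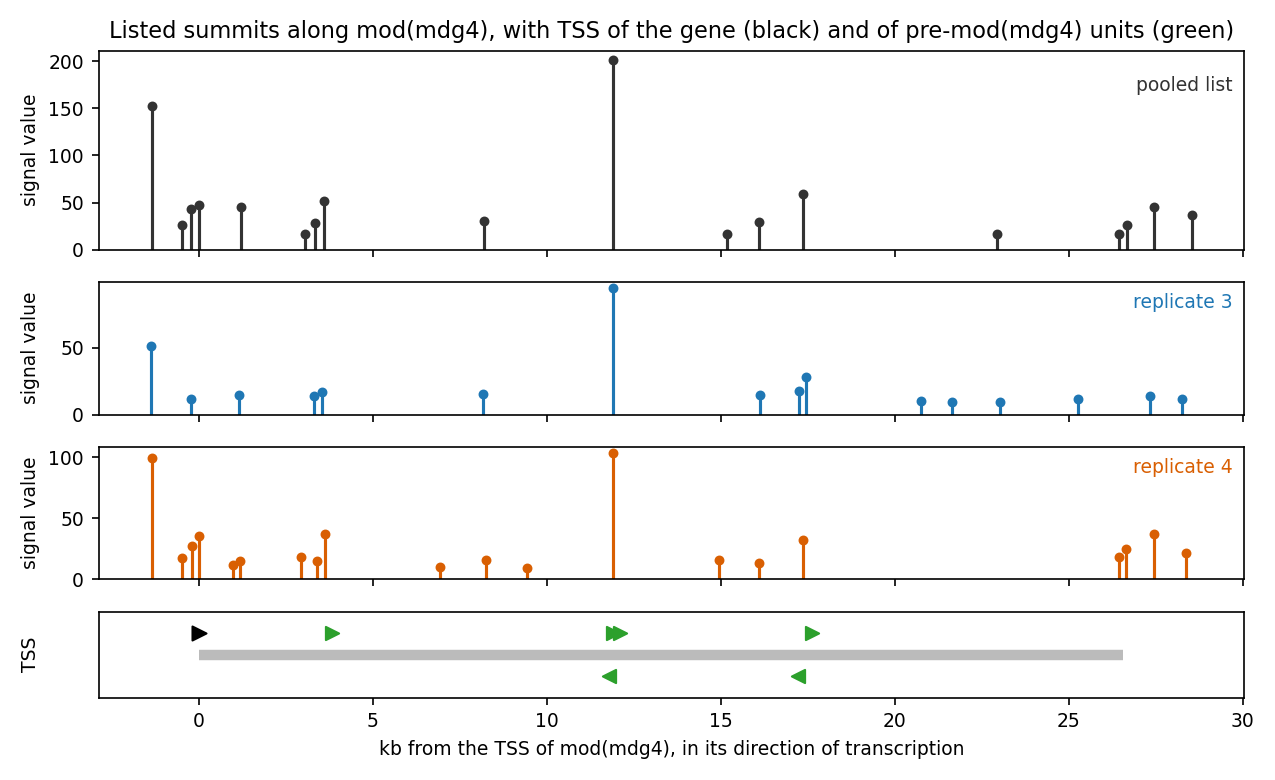
Signal value (vertical axis) of each listed summit along mod(mdg4), against the distance from its TSS (kb), with triangles for the start sites of mod(mdg4) and of the pre-mod(mdg4) units, pointing in the direction of transcription. The peaks at 11915 bp and at 1362 bp upstream stand highest in the pooled list and both replicates, and the TSS of mod(mdg4) itself carries 47.21 in the pooled list.

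CTCF and pita, which both encode zinc finger insulator proteins, had no summit in the joint list and none in the pooled list, where 64.6% of protein-coding genes had at least 1. The nearest joint-list summit was 24911 bp from CTCF (FBgn0035769, chr3L:7353578-7356713, minus strand) and 15558 bp from pita (FBgn0034878, chr2R:23548967-23554712, minus strand). Replicate 4, whose full list had a summit at 67.8% of protein-coding genes, had 1 or more at all 9 factor genes. Replicate 3, at 66.5% of protein-coding genes, had summits at 5 of the 9 and none at Dref, CTCF, Cp190 and pita.

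At pita, replicate 4 listed 6 summits. The strongest (57.93, rank 1102) lay past the end of pita, in a 5′ untranslated exon of wmd. It was 30 bp upstream of the nearest wmd TSS. A further 2 lay 160 bp (40.16, rank 2422) and 161 bp (37.72, rank 2781) downstream of the start sites of pita. The latter was also 77 bp downstream of the TSS of the caspase gene Dcp-1. At CTCF, replicate 4 listed 3 summits, of which one 22 bp upstream of the TSS had 23.85 (rank 6584) and one 523 bp upstream had 27.12 (rank 5233). Of these, 4 of the 6 at pita and 2 of the 3 at CTCF exceeded the lowest signal value in the pooled list, 16.21, which listed none of them. That value belongs to the weakest pooled region and is not a threshold for replicate 4, whose values are on another scale. The comparison thus does not show that the pooled list should have held them. Among the strongest 1731 regions of replicate 4, 9.60% of the nuclear ones had no pooled summit within 100 bp. That share also counts regions with a pooled summit somewhat farther off, whereas pita and CTCF had none within 2 kb. Only the strongest region at pita was among those 1731.

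The length of the stretch without a listed summit was also measured around the first TSS of these genes. Around the first TSS of pita, the summits on either side were 47600 bp apart in the pooled list and 44158 bp apart in replicate 3, against 263 bp in replicate 4. The median spacing of listed summits was 1490 bp, 1907 bp and 1330 bp in the pooled list, replicate 3 and replicate 4. Start sites often fell in longer stretches, so these medians are not a like comparison for a stretch around a TSS. The pooled stretch at CTCF was 13708 bp, and 44.7% of protein-coding genes started in one at least as long. In the pooled list 11.2% of protein-coding genes started in a stretch at least as long as that at pita, and in replicate 3 8.66% did. In replicate 3 the stretches at Dref, CTCF and Cp190 were 18955, 18881 and 22520 bp, and 30.0%, 30.1% and 24.6% of protein-coding genes started in ones at least as long.

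Pooled and replicate signal values were also set side by side. Over 1473 nuclear joint-list regions matched in both replicates, dividing the pooled signal value by the replicate 3 and replicate 4 values added together gave a median of 1.01. At the factor genes matched in both, this ratio ran from 0.99 to 1.03, apart from M1BP at 1.23. At Cp190 the pooled value exceeded that of replicate 4 by 108.2, and at Dref by 35.19. Whether the values add up at regions listed in a single replicate was not tested. At Cp190 and Dref the pooled value was higher than that of replicate 4 alone, although replicate 3 listed no region. At pita, by contrast, the strongest replicate 4 region (57.93) had no pooled summit within 100 bp. Why replicate 3's list lacks the regions at Cp190 and Dref was not tested.

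**Figure D5:**
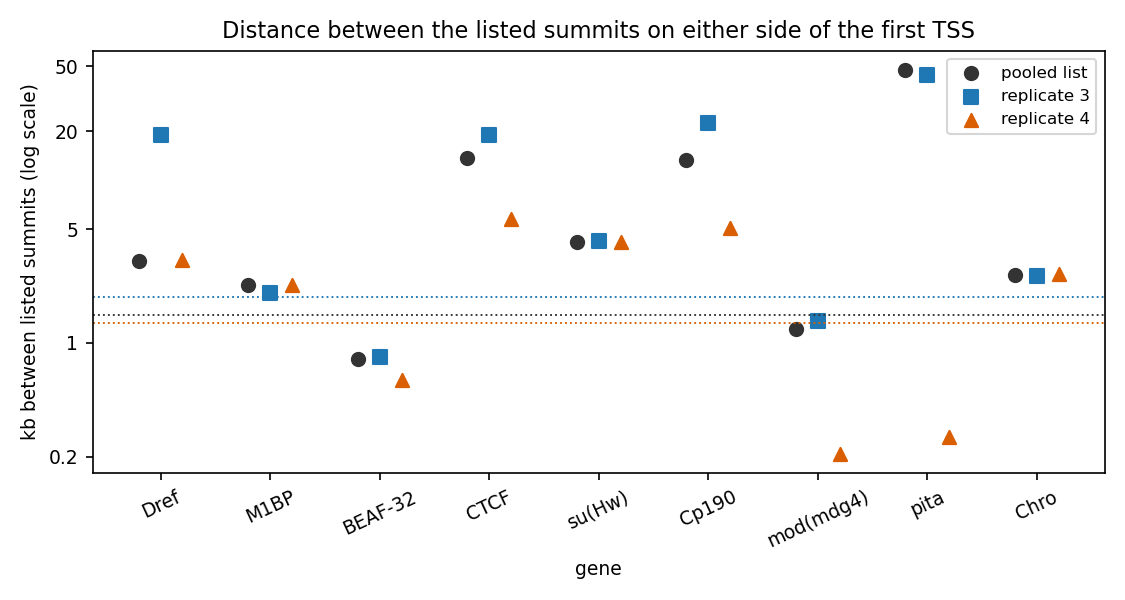
Distance between the listed summits on either side of each gene's first TSS (vertical log axis, kb), for the pooled list and each replicate, with dotted lines at the median spacing of each list. At pita the pooled list and replicate 3 lie at 47600 and 44158 bp and replicate 4 at 263 bp, and replicate 3 stands above replicate 4 at Dref, CTCF and Cp190 too. The medians cover all gaps between summits, and start sites often fall in longer ones. In the pooled list 44.7% of protein-coding genes started in a stretch at least as long as the 13708 bp at CTCF.

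Agreement between replicates was counted over all 9 summits. Of the 9 summits, 6 had a summit within 100 bp among the strongest 1731 regions of both replicates, against 56.6% of nuclear joint-list summits, a share that is raised because the list was made from both. All 9 were matched in replicate 4 and 6 in replicate 3. In the replicates' full lists, 9 and 7 were matched, where 96.4% and 89.3% of nuclear joint-list summits were. For the 7 matched in both, the signal value in replicate 4 was a median 1.304 times that in replicate 3, from 1.09 at the first BEAF-32 summit to 2.555 at M1BP, and the median over nuclear joint-list regions was 1.435. The M1BP value rests on the matching distance, since a stronger replicate 3 summit (46.82) at that promoter lay more than 100 bp away.

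The sequence at the summits was compared with the words that the factors' own products recognise. Words were searched on both strands in the 101 bp around each summit, and in the 101 bp ending at the first TSS of each protein-coding gene. TATCGA, part of the element bound by Dref, was in 2 of 9 windows, at Dref (24 bp from the summit, in the stretch printed above) and at Chro, as against 10.1% of nuclear joint-list windows and 17.7% of promoters. CGATA, the BEAF-32 word, overlaps it and was at the same 2 summits, with shares of 18.0% and 28.4%. The complete element TATCGATA was in 0 windows, where 3.40% of nuclear windows and 6.30% of promoters held it. The Motif 1 core GGTCACACT, with shares of 0.644% and 2.29%, and its part GTCACA, with 3.98% and 6.83%, were in 0 as well. For 9 windows a count of 0 allows a share of up to about 33.3%, by a rough rule that sets 3 counts against a 0. These counts thus cannot show a difference from the list. Counts of 2 or 3 rest on the same 9 windows and were not tested.

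TATAAA was in 3 of the 9 windows, at M1BP, su(Hw) and the tin side of mod(mdg4), as against 23.0% of nuclear windows and 20.2% of promoters. No window held AAGTCA, the core recognised by receptors of the tailless group (5.27% of nuclear windows and 5.94% of promoters), AGGTCA (1.76% and 1.71%), the su(Hw) word TGCATA (8.78% and 4.60%), the GAGA factor word GAGAG (8.90% and 13.3%) or the E-box CAGCTG (3.40% and 7.68%). A and T made up 50.5% of the window at Dref and 79.2% and 82.2% of those at Cp190 and at the tin side of mod(mdg4), and the other 6 ran from 58.4% to 67.3%. The median was 68.3% over nuclear joint-list summits and 59.4% over promoters.

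Genes of related function were examined as 3 further lists. Of 25 other architectural proteins and promoter cofactors, 7 (28.0%) had a joint-list summit inside or within 2 kb, 5 of them within 1 kb of an own TSS. Trl, the GAGA factor gene, had the strongest (248.4, rank 117), 1537 bp downstream of its nearest TSS, and held 3 in all. The stronger of 2 summits at row (169.7) lay 67 bp upstream of its TSS and that at JIL-1 (118.8), a histone kinase gene, 25 bp upstream. The summit at gfzf (89.8), a cofactor of M1BP, lay 170 bp upstream and that at nsl1 (84.98) 237 bp upstream, whereas the one near Map60 (148.7) was 99 bp from the TSS of CG1827. The summits described at row, nsl1 and Map60 had no match within 100 bp in replicate 3.

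Of 14 cohesin and condensin genes, whose products form rings that hold or fold chromosomes, 4 (28.6%) had a summit, all within 1 kb of an own TSS and matched in both replicates. They were pds5 (269.6, rank 93), SA1 (153.5, rank 381), Cap-H2 (130.2, rank 546) and barr (84.46, rank 1330). Each summit lay 49 to 170 bp upstream of the gene and also within 327 bp of another gene's TSS.

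Of 24 core promoter machinery genes found in the annotation, 10 (41.7%) had a summit within the 2 kb windows, and only 4 had one within 1 kb of an own TSS. At NC2alpha (186.9) the summit lay 96 bp upstream and at Taf4 (173.4) 146 bp upstream. The summit counted for Taf13 (249.2, rank 116) was 27 bp from the TSS of Pyroxd1, and that for Taf12 (136.3) was 181 bp from the TSS of CG18476. A single summit (128.8, rank 561), 270 bp from the TSS of Snx21, counted for both Taf10 and Taf10b. That summit and the one counted for Taf12 had no match within 100 bp in replicate 3, nor had some weaker ones not named here. Those at NC2alpha, Taf4 and Taf13 were matched in both replicates. The corresponding shares of protein-coding genes were 18.6% and 12.2%.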

How the data were processed

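Peak files on dm6 were used as deposited, 4 in all: the joint IDR-thresholded list, the pooled list and a full list per replicate. The signal value and the −log10 of a q-value in each file are the authors', per the column order of the deposited files. Per the deposited file descriptions, the pooled list derives from both replicates' alignments and 1 further file. The sources used here do not name the aligner, peak caller, versions or control normalisation. Lists on another build were not used here. Regions were ranked by signal value. Summits were matched between lists within 100 bp. Genes, exons and TSS came from Ensembl release 115 without transposable elements, and all region and gene ends lay within the release 6 chromosomes. Counts were made in Python 3.11.15 with pandas 2.3.3 and numpy 2.4.6, and the window, distance and matching steps were tested on simulated data. The members and gene lists were chosen with earlier results of these data known. No test was run, since there is 1 group and no control, and counts stand beside those over all protein-coding genes or summits. Named genes are the 9 members, the nearest gene at each of their summits and up to 6 genes with the highest signal value of each of the 3 other lists. Genes at weaker summits of the members were named after their values were seen. Alternatives changed the window, the list, the matching distance and the replicates.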

Additional observations from a re-analysis of the deposited data

How the results depend on the processing

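The count of 7 factor genes with a joint-list summit was also 7 with windows of 1 kb or 5 kb and among the 5000 strongest pooled regions, and ran from 5 to 8 without replicate 4 and without replicate 3. It was 3 when only summits inside the gene counted, and 3 in the strongest 25% of the list. The count of 9 summits was 3 inside the genes only, 4 in the strongest 25% and 17 among the 5000 strongest pooled regions, and ran from 7 to 10 with either replicate left out. The core promoter machinery count of 10 was 4 when the summit had to lie within 1 kb of an own TSS, and ran from 5 to 13 with either replicate left out, 5 without replicate 4. For these counts, leaving out a replicate meant taking the other replicate's own strongest regions, as many as the joint list holds. The joint list itself was not remade. Without replicate 4 the members lost were Dref and Cp190, and without replicate 3 the member gained was pita. The region counted at pita (57.93, rank 1102) lay past the end of pita, 30 bp upstream of the nearest wmd TSS. The replicate 4 summits 160 and 161 bp downstream of pita start sites ranked 2422 and 2781 and were not counted. The median signal value of the strongest summit per gene was 109.1 in the joint list. It was 49.08 over the 5 genes matched in replicate 3 and 73.93 over the 7 matched in replicate 4. These medians are on unlike scales. At regions matched in both replicates, joint-list values were a median 1.01 times the replicate values added together. The cause of the changes in the counts was not tested. No paired analysis was possible because there is 1 group and the results come from no test. With unknown depth, a region missing from a list is not shown to be unbound.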
